A study of Sus scrofa with 16 samples.

Results

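The cytosolic ribosomal protein genes were read from the subcutaneous fat of 16 pigs. Members were the probes whose gene name in the scanner files starts with RPL or RPS, or is RPSA, leaving out RPS6K kinases and names ending in L1 or holding LIKE. This took 200 of the 43603 non-control probes, for 34 gene names, out of 3410 named genes with a kept probe in all. The large subunit (names in RPL) had 17 names on 106 probes, and the small subunit (names in RPS, with RPSA) had 17 names on 94. Of these probes 198 were well above background on at least 8 arrays and were kept, and they held all 34 genes. The other two, a clone probe each for RPS28 and RPS29, were well above background on 6 arrays and on 0 arrays.

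The ribosome makes every protein of the cell. Its small subunit reads the mRNA and its large subunit joins the amino acids. Each is built from ribosomal RNA and a set of proteins, most of them used once per ribosome. Most ribosomal protein mRNAs begin with a terminal oligopyrimidine tract, through which their translation follows the mTOR pathway, so their mRNA level is only a part of their control. In fat tissue, as elsewhere, these mRNAs are among the most abundant.

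The pigs weighed 20 kg and were fed ad libitum. Of these, 8 came from the low-RFI line (RFIneg) and 8 from the high-RFI line (RFIpl). RFI is residual feed intake, the part of feed intake that growth and maintenance do not account for. Their age and sex are not given in the sources used here. Within each line the titles number the pigs 1 to 8, and the labels give the numbers no further meaning. The lines were compared, and so were replicates 1 to 4 with replicates 5 to 8, each set holding 4 pigs of either line. Every one of the 4 slides held 2 pigs of each line and 2 of each set.

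A level below is the log2 signal minus the array's 75th percentile, so 0 is that percentile. Adipocyte markers were high in the tissue, with FABP4, a fatty acid carrier, at 8.52 and ADIPOQ, the adiponectin gene, at 8.33, and 11 of 12 listed markers were measured. In 4 arrays markers of other tissues or cells ran higher. Averaged as deviations from each gene's mean, 14 skeletal muscle markers stood at 7.28 in low-RFI replicate 8 and at 1.05 or below elsewhere. The average of 6 skin and gland epithelium markers reached 3.11 in high-RFI replicate 6 and 1.57 in the next highest array, and that of 10 T and NK cell markers 1.49 in high-RFI replicate 5. Results that rest on low-RFI replicate 8 and high-RFI replicates 2, 5 and 6 are given without them as well. In bulk tissue, fewer cells of a type and less RNA per cell cannot be told apart.

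The array read most genes through several 60-base probes, and the results below turn on where a probe lies. Starts are counted on the listed transcript, and none of the 200 probes has a genome position in the files. RPL6, a large subunit protein, is shown because its probes fell into groups that differed from pig to pig. The capitals mark the longest run of at least 12 bases that each probe shares with the probe starting at 666.
RPL6 387: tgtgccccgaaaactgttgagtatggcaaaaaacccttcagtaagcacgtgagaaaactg
RPL6 617: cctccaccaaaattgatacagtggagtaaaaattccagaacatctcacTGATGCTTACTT
RPL6 644: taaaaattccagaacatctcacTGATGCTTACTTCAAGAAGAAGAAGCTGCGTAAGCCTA
RPL6 666: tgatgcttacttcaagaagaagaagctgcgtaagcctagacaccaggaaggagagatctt
RPL6 672: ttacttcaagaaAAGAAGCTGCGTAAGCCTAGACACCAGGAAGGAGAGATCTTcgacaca
RPL6 692: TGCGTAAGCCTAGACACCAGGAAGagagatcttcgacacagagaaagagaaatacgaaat
RPL6 708: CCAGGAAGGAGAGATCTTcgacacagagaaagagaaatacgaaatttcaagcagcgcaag
RPL6 730: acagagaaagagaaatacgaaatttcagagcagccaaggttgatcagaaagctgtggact
The runs break off early in places: the probe at 692 shares 24 bases and the probe at 672 shares 41. Over all members, 169 pairs of probes on the same listed transcript should overlap by at least 20 bases from their starts, and 23 of these pairs carried the same letters throughout the overlap. The others differed by at least 1 base, or had gained or lost bases, so overlapping probes of a gene are not copies of each other.

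The next probes belong to genes whose levels differed between the replicate sets or whose probes parted, and are shown to say what was read. RPL23 and RPL14 are large subunit proteins, RPS3 sits at the mRNA entry side of the small subunit, RPS15 lies in its head, and RPS23 lies near its decoding centre. For RPS23 the capitals mark the 36 bases shared by both probes, which read the transcript and not the clones discussed below.
RPL23 138: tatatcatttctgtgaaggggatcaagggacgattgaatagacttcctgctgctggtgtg
RPL23 225: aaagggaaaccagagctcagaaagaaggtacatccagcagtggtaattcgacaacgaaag
RPS3 445: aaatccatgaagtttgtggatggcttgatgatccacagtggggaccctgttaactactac
RPL14 396: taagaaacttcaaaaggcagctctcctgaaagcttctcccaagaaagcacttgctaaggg
RPS15 66: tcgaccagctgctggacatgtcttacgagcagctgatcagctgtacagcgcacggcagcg
RPS23 354: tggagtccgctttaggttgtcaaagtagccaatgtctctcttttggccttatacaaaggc
RPS23 379: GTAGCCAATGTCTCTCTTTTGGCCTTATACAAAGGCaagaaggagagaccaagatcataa
The share of G and C in the 198 kept probes had a median of 45% (range 35% to 60%), against 41.7% over all 32097 kept probes.

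The ribosomal protein genes gave strong and even signals in every pig. The brightest kept probe of a gene stands for it here. All 34 of these probes were among the brightest 5% of kept probes, at 4.56 or higher. Their means ran from 5.23 for RPS16, a small subunit protein, to 8.77 for RPLP1, a protein of the stalk that recruits translation factors. Next to RPLP1 stood RPS20, RPS3 and RPS28, and next to RPS16 stood RPL36AL, RPL14 and RPL27. Each probe binds its own target with its own strength, so these values are no order of mRNA abundance. Large subunit genes had a median level of 7.82 and small subunit genes one of 7.78.

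Not every probe of these genes was bright. Of the 198 kept probes 186 lay above 2 and 12 below. The dim ones included 2 RPS23 clone probes at -3.43 and -3.08, an RPL32 clone probe at -4.60, an RPS16 clone probe at -4.17 and an RPS26 probe at -5.63, the last well above background on 9 arrays. Probes designed on cDNA clones or ESTs numbered 16, in 10 genes, and their median SD over the 16 arrays was 0.30. For the 182 designed on RefSeq or Ensembl transcripts it was 0.12.

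**Figure D1:**
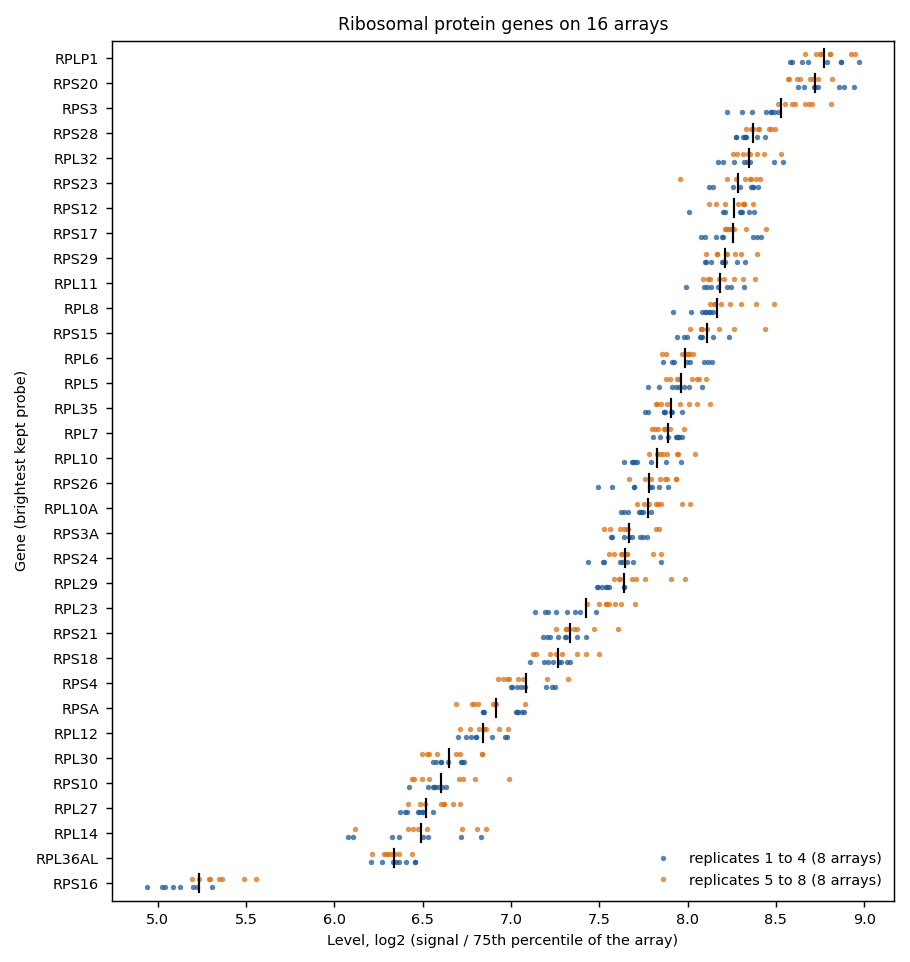
Level of each of the 34 genes on its brightest kept probe. The horizontal axis is log2 signal over the array's 75th percentile, each point is 1 array, colours give the replicate sets and the black bar is the mean over 16 arrays. Means run from 5.23 (RPS16) to 8.77 (RPLP1), and RPL14 spans the widest range.

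Spread between pigs was small. The SD over the 16 arrays had a median of 0.11 over the 34 genes, from 0.06 for RPL7 to 0.25 for RPL14. It was 0.30 over all kept probes and 0.22 over the other probes of the brightest 5%, and 33 of the 34 genes lay below the latter. After line and replicate set were removed, the smallest SDs belonged to RPL7, RPS28, RPL36AL and RPL27 (0.06 to 0.09), and the largest to RPL14 (0.26), RPS10 (0.13), RPS23 (0.13) and RPLP1 (0.13).

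Between the lines no ribosomal protein probe passed the test. With limma, 0 of 198 member probes passed an adjusted p of 0.05, and 0 of all 32097 probes did (0.0%). At an unadjusted p under 0.05 there were 0 member probes, against 1181 (3.68%) of all probes. The differences were small and mostly one way: 167 member probes were higher in the low-RFI and 31 in the high-RFI line, with a median difference (low-RFI minus high-RFI) of 0.05 against -0.00012 over all probes. That lean did not hold under quantile scaling, where 99 were higher and 99 lower with a median of -0.00035. It also turned between slides, with medians of 0.15, 0.07, -0.04 and -0.02 within slides 1 to 4.

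The 5 genes with the smallest p show how narrow the differences were. RPS10, of the small subunit, had a lowest, median and highest level of 6.50, 6.60 and 6.99 in the low-RFI and of 6.42, 6.55 and 6.71 in the high-RFI pigs. The ranges overlapped in part, with low-RFI pigs at the upper end and high-RFI pigs at the lower end, and the difference was 0.12 (SE 0.08, limma adjusted p = 1.0). RPL11, a large subunit protein known for binding MDM2, differed by 0.08 (SE 0.07), RPS16 by 0.10 (SE 0.09), RPL10, a late-joining large subunit protein, by 0.08 (SE 0.07), and RPS4 by 0.08 (SE 0.07). The transcript listed for RPS4 is that of RPS4X, the X-linked copy, by its RefSeq accession. On 0 of the 198 member probes did the low-RFI and high-RFI ranges separate, against 0.0125% of all probes.

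The intervals of the line difference were tight. The 95% interval of 33 of the 34 genes lay within a 1.25-fold change either way, and that of all 34 within 1.5-fold. Over the 198 member probes 83.8% had an interval within 1.25-fold, against 28.1% of all kept probes. Within replicates 1 to 4 alone, 0 of 198 passed (5 of all probes, 0.0156%) and the median was 0.004. Within replicates 5 to 8 alone, 0 passed (0 of all probes, 0.0%) and the median was 0.08, which became -0.03 under quantile scaling. Without low-RFI replicate 7 it was 0.03, with 135 members above 0 in place of 171.

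The replicate sets differed for a few members. Of 198 member probes, 6 passed the adjusted p of 0.05 with limma, all higher in replicates 5 to 8. Over all 32097 probes 1662 passed (5.18%), 640 of them higher (1.99%) and 1022 lower (3.18%). The members' share was 3.03%, below that of all probes over both directions. At an unadjusted p under 0.05 there were 28 member probes (14.1%), against 23.5% of all probes. The median difference (replicates 5 to 8 minus 1 to 4) was 0.04 over members and -0.03 over all probes, with 130 members above 0 and 68 below. By subunit it was 0.07 for the 106 large and 0.006 for the 92 small subunit probes, a gap that was not tested.

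RPL23, a large subunit protein that, like RPL11, can bind MDM2, carried most of these calls, with all 4 of its probes. On the probe starting at 138 the lowest, median and highest level was 6.25, 6.48 and 6.79 in replicates 1 to 4. In replicates 5 to 8 they were 6.77, 6.90 and 7.02. The sets met only at their ends: low-RFI replicate 3, at 6.79, exceeded high-RFI replicate 6, at 6.77. The difference was 0.42 (SE 0.09, adjusted p = 0.018), or 1.34-fold. The probes starting at 225, 435 and 436 differed by 0.41, 0.27 and 0.30 (adjusted p = 0.024, 0.038 and 0.040). Within the lines, the difference on the probe at 138 was 0.39 (SE 0.15) in low-RFI and 0.45 (SE 0.11) in high-RFI pigs. Neither of these within-line values passed (adjusted p = 0.56 and 0.057). In the low-RFI line alone 0 members passed (0.0% of all probes), and in the high-RFI line alone 1 did, RPL23 at 225 (4.58% of all probes).

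RPS3 followed. On its brightest probe, starting at 732, levels ran from 8.22 to 8.51 with a median of 8.46 in replicates 1 to 4, and from 8.51 to 8.81 with a median of 8.64 in replicates 5 to 8. The sets did not overlap on this probe nor on the one starting at 749, but they nearly met. The highest value of replicates 1 to 4 and the lowest of replicates 5 to 8 were 8.5095 and 8.5117 at 732. At 749 they were 8.2214 and 8.2243. The sets were apart on these 2 of 198 members (1.01%), against 126 of all probes (0.393%). The differences of the 3 RPS3 probes were 0.26 (445), 0.23 (732) and 0.24 (749), each with SE 0.07. Only the first passed, at an adjusted p of 0.0497, and the others stood at 0.058 and 0.060. RPS16, at 0.23 on its brightest probe (adjusted p = 0.073), was the next gene.

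The sixth call was of another kind. The RPS23 clone probe starting at 393 had a lowest, median and highest level of -5.03, -4.09 and -3.34 in replicates 1 to 4, and of -3.64, -2.80 and -2.0 in replicates 5 to 8. The sets overlapped in part, and the difference was 1.33 (SE 0.28, adjusted p = 0.020). The 4 RPS23 transcript probes, 2 of them printed above, differed by between -0.004 and 0.11 and none passed. With line and set removed, their mean correlated with that of both clone probes at r = -0.15 over the 16 arrays. What the clone probes bind was not tested.

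None of these 6 calls held without the 4 arrays with other markers, 3 of which lie in replicates 5 to 8. There 0 of 198 members and 0 of all probes passed with 12 arrays. The differences themselves were not smaller: 0.46 for RPL23 at 138, 0.28 for RPS3 at 445 and 1.43 for the RPS23 clone probe (adjusted p = 0.081, 0.16 and 0.079). With slide as a block 4 members passed, 3 RPL23 probes and the RPS23 clone probe, against 4.98% of all probes.

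**Figure D2:**
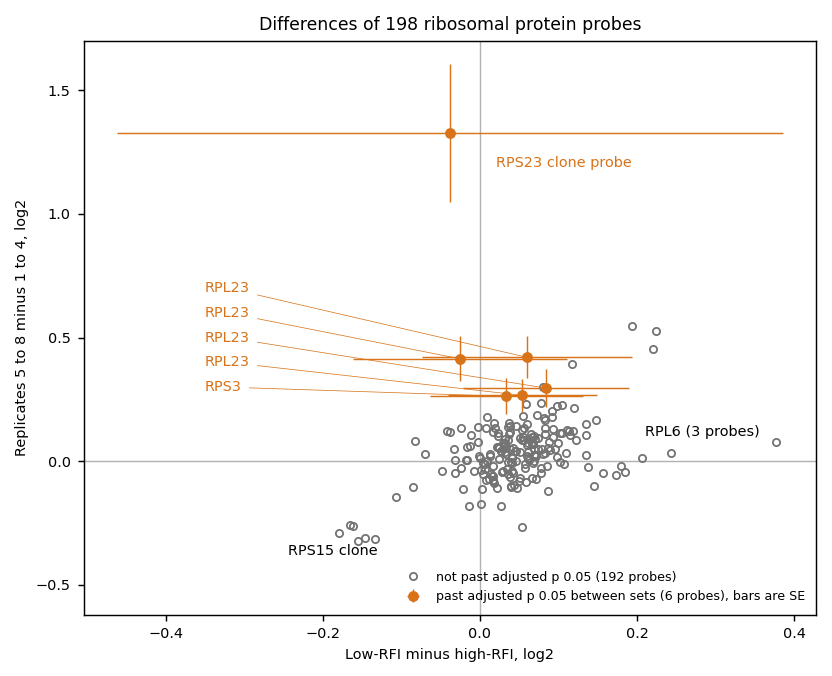
Each of the 198 kept probes by its line difference (horizontal axis, low-RFI minus high-RFI, log2) and its set difference (vertical axis, replicates 5 to 8 minus 1 to 4, log2). Orange points with SE bars are the 6 probes past an adjusted p of 0.05 between the sets, and the RPS23 clone probe at 1.33 lies far from the others.

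Toward the other side no member passed. RPSA, a small subunit protein also known as the laminin receptor, had values below 0 on all 6 probes (1 of them read on 15 arrays), at -0.03 to -0.18, with the smallest adjusted p at 0.14. RPS20, which joins the head of the small subunit, had values of -0.06 to -0.11 on 7 probes (smallest adjusted p = 0.36). RPLP1 differed by 0.05 (SE 0.08) on its brightest probe, and RPL10 by 0.13 (SE 0.07, adjusted p = 0.23). In 11 of the 32 genes with several kept probes, probes differed in sign between the sets: RPL12, RPL14, RPL30, RPL6, RPL7, RPS12, RPS15, RPS23, RPS24, RPS3A and RPS4. In RPL30, RPS12 and RPS4 all values stayed within 0.11 of 0, and in RPL7 and RPS3A within 0.18. RPS15, RPL14 and RPL12 spread further, with RPS15 from -0.32 to 0.09.

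Whether the line difference changed between the sets was tested as an interaction. There 0 of 198 members passed, as did 0 of all probes (0.0%), and at an unadjusted p under 0.05 there were 1 and 2186 (6.81%). That 1 probe was RPL12 at 400 (difference of differences 0.29, SE 0.13, adjusted p = 0.72). The genes with the smallest p were RPS18 (0.23, SE 0.13), RPL12 (0.19, SE 0.13), RPS10 (0.20, SE 0.16), RPL32 (0.17, SE 0.14) and RPL29 (0.18, SE 0.14). All 5 values are positive, and the median over members was 0.06 but -0.06 under quantile scaling.

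Single genes showed larger differences between pigs than between groups, and these examples were chosen after their values were seen. RPL6 is the clearest case. On its probe starting at 666 the level ran from 6.51 to 7.10 with a median of 6.88 in low-RFI pigs, and from 6.10 to 6.91 with a median of 6.73 in high-RFI pigs. High-RFI replicate 1 was lowest by a wide gap, at 6.10, and low-RFI replicate 5 was highest. The 9 probes starting at 617 to 692 followed one another, and their SDs were 0.18 to 0.43. With line and set removed, the mean correlation between these probes was 0.88. On average they lay 0.53 below their mean in high-RFI replicate 1, by 0.30 in high-RFI replicate 6 and by 0.29 in low-RFI replicate 8.

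The RPL6 probes on either side shared this pattern only in part. Those starting at 387, 730 and 855 had SDs of 0.09 to 0.12, and in high-RFI replicate 1 their average was 0.04 above its mean. With line and set removed, their average correlated with that of the 9 probes at r = 0.37. Both averages were highest in low-RFI replicate 7. The probe at 708, which shares 18 bases with the one at 666, ran its own way. It was low in low-RFI replicate 6 (-0.63) and high-RFI replicate 8 (-0.62). With line and set removed, its profile correlated with that of the 9 probes at r = -0.25. The line differences of the 9 probes were 0.13 to 0.38, and the one at 622 was the largest of all members (0.38, SE 0.19, unadjusted p = 0.066, adjusted p = 1.0). Those at 387, 730 and 855 were 0.03 to 0.06. The RPL6 line difference thus depends on which probe is read, and the bright probe at 855, which represents the gene, gave 0.03.

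**Figure D3:**
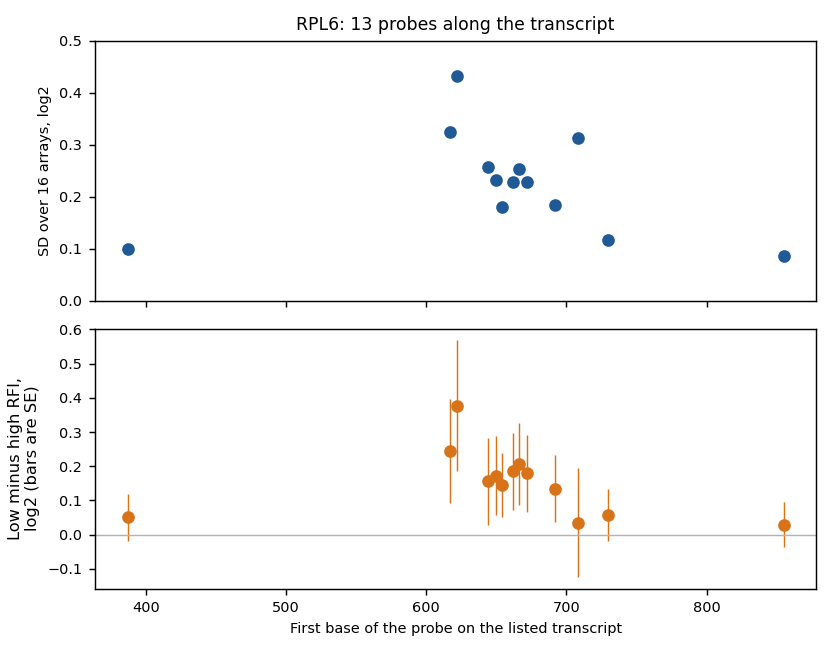
The 13 RPL6 probes by the first base of the probe on the listed transcript (horizontal axis). The upper panel gives the SD over 16 arrays in log2, the lower panel the line difference in log2 with its SE. Probes from 617 to 708 have SDs of 0.18 to 0.43, and the probes at 387, 730 and 855 have 0.09 to 0.12.

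RPS15 parted into a pair of readings. Its transcript probes at 66 and 419 and its 6 clone probes, at 907 to 1088 on their clone, each agreed within themselves. With line and set removed, the mean correlations between probes were 0.82 and 0.96. The means of these groups then correlated at r = -0.17. On the clone probe at 1071, low-RFI replicates 1, 2, 4 and 6 lay between 6.29 and 6.42, and replicates 3, 5, 7 and 8 between 5.62 and 5.65. The 8 high-RFI pigs ranged from 5.92 to 6.39, with a median of 6.12. On the transcript probe at 419 the same low-RFI replicates 3, 5, 7 and 8 ranged from 7.94 to 8.44, over the whole range of that probe. The set differences were -0.26 to -0.32 on the clone probes (smallest adjusted p = 0.14) and 0.05 to 0.09 on the transcript probes.

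RPL14 was alike on all its transcript probes. On the probe at 621 low-RFI levels ran from 6.11 to 6.83 with a median of 6.51, and high-RFI levels from 6.08 to 6.86 with a median of 6.39. The lines overlapped almost fully. Low-RFI replicate 4 and high-RFI replicate 2 were low on all 5 probes, on average by 0.48 and 0.39, and low-RFI replicate 3 was highest, at 0.32. With line and set removed, the clone probe at 1387, a dim one at 0.67, correlated at r = 0.92 with their mean. Its set difference was -0.27, against 0.03 to 0.12 on the transcript probes. Neither the line (0.10, SE 0.13) nor the set (0.11, SE 0.13) separated these pigs.

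**Figure D4:**
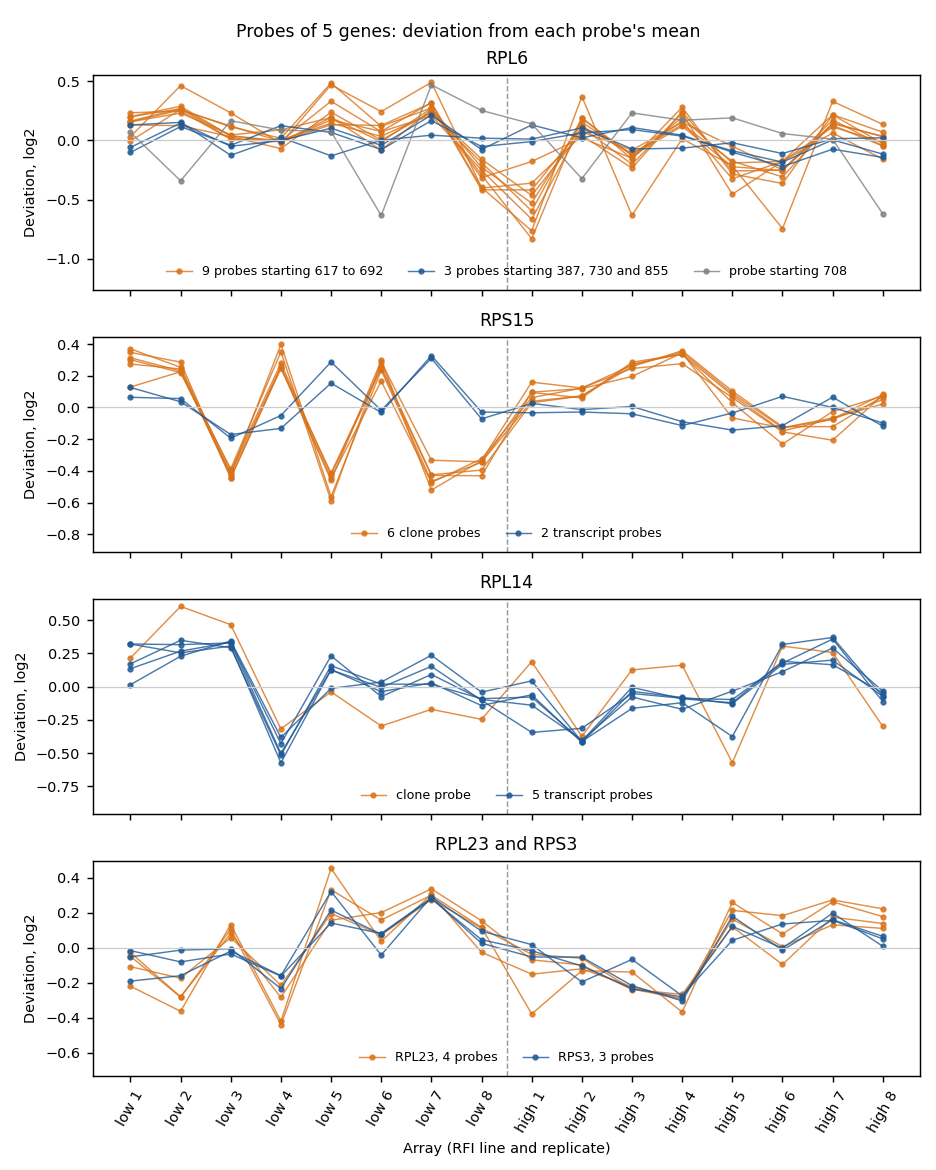
Deviation of each kept probe of RPL6, RPS15, RPL14, RPL23 and RPS3 from its own mean over the arrays (vertical axis, log2) on each array (horizontal axis, line and replicate). Lines join the values of 1 probe, and the order of arrays within a line carries no meaning. RPS15 clone probes average 0.36 to 0.48 below their mean in 4 low-RFI pigs, and RPL23 and RPS3 lie higher in replicates 5 to 8 of both lines.

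The genes varied together to some degree from pig to pig. With line and replicate set removed, the mean correlation over the 561 pairs of genes was 0.33 on 16 arrays, and 508 pairs were above 0. It was 0.0099 over all kept probes without missing values and 0.088 over the other probes of the brightest 5%. All these values share the array's scaling, so a part of any correlation comes with the array. Under quantile scaling the mean was 0.39, and under normexp background correction 0.87, where that of the other bright probes also rose, to 0.49. It was 0.19 within replicates 1 to 4 and 0.45 within replicates 5 to 8.

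Low-RFI replicate 7 stood highest on the scale used here. The mean deviation of the 34 genes was 0.18 there, with 33 genes above their own mean, and the next arrays were low-RFI replicate 5 at 0.09 (27 genes) and high-RFI replicate 7 at 0.06 (24 genes). The lowest were low-RFI replicate 4 at -0.10 (5 genes) and high-RFI replicate 4 at -0.09 (7 genes). Without low-RFI replicate 7 the mean correlation was 0.23. Without the 4 arrays with other markers it was 0.37. The order of the arrays depended on the scaling. Under quantile scaling high-RFI replicate 6 was highest at 0.12 (32 genes) and low-RFI replicate 7, at 0.07 (25 genes), was below high-RFI replicate 7 and low-RFI replicates 5 and 6, while low-RFI replicate 4 at -0.14 and low-RFI replicate 8 at -0.13 were lowest. Under median scaling low-RFI replicate 7 was highest at 0.17 and high-RFI replicate 6 lowest at -0.10. With normexp low-RFI replicate 7 was highest at 0.29. There high-RFI replicates 3 and 8 were far below the rest, at -0.61 and -0.49 (0 genes each), and low-RFI replicate 6 was next at -0.17. Their part in the normexp correlation was not tested.

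Genes differed in how far they took part. The mean correlation with the other members was highest for RPL35 (0.52), RPL8 (0.50) and RPS21 (0.48), and lowest for RPL36AL (0.08), RPL14 (0.10) and RPL7 (0.17). RPL35 lies at the exit tunnel of the large subunit and RPL8 in its core, and they were the closest pair, at r = 0.92. RPL36AL, a close copy of the large subunit protein RPL36A, and RPL27 were the farthest, at r = -0.55. Among the 32 genes with several probes the mean correlation between probes of a gene had a median of 0.59, from 0.22 (RPL12) to 0.88 (RPL14), and in 29 it exceeded the 0.33 between genes.

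**Figure D5:**
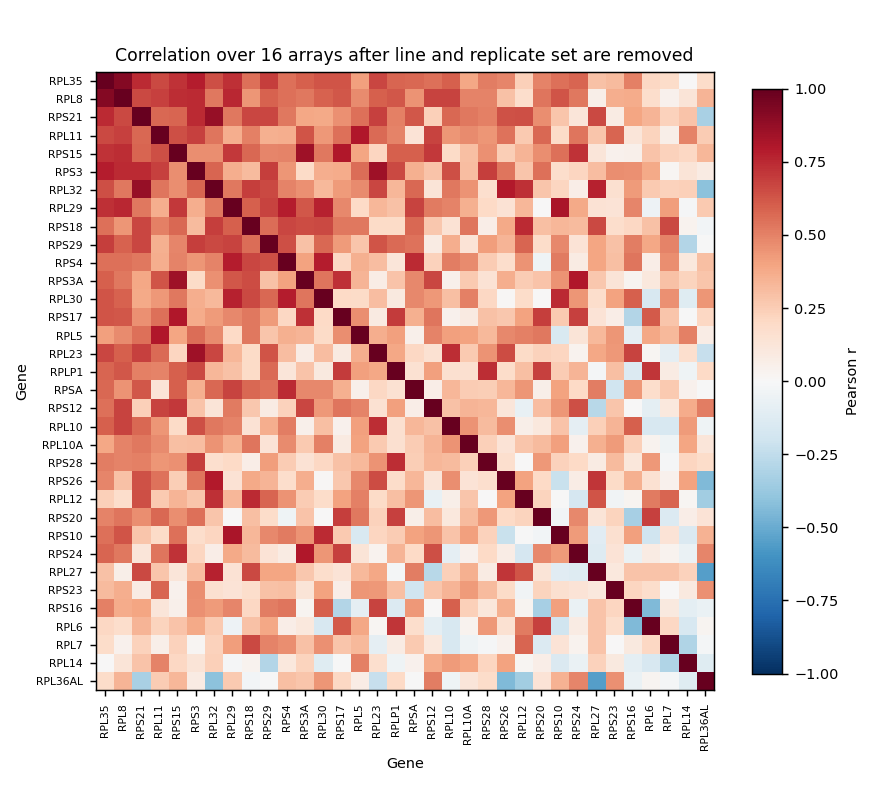
Pearson correlation over 16 arrays between the 34 genes (both axes, sorted by mean correlation) after line and replicate set are removed. Red is positive and blue is negative. RPL35 and RPL8 (r = 0.92) are at the warm end, and RPL36AL and RPL14 at the end with the weakest correlations.

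Outside the family, likeness to the mean profile of the members was measured for 3353 named genes on their brightest probe. It is the correlation r with line and replicate set removed, and its median was 0.03. The 5 closest over the 16 arrays were EMP1 (0.84), VEGFA (0.80), COL4A6 (0.79), GATA2 (0.78) and STX16 (0.77). EMP1 encodes a membrane protein, VEGFA an endothelial growth factor, COL4A6 a basement membrane collagen, GATA2 a transcription factor and STX16 a vesicle fusion protein. With so many genes and 16 arrays these are given as a description.

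Other genes of protein synthesis were taken from lists by function, most of them measured only in small part. Of the listed genes, 9 of 50 were measured for initiation, 2 of 15 for elongation and termination, and 6 of 22 for targeting. For translational control it was 3 of 24, and for ribosome assembly and RNA polymerase I it was 10 of 50. The counts below cover the measured genes only. Between the sets 0 of 9 translation initiation genes passed (median 0.09), 0 of 2 elongation and termination genes (median -0.03), 0 of 6 nascent chain and targeting genes (median 0.01), and 0 of 8 mitochondrial ribosomal proteins (median -0.06). In the translational control list 2 of 3 passed, both higher in replicates 5 to 8: EIF4EBP1, an mTOR target that holds back initiation, by 0.55 (SE 0.14, adjusted p = 0.033), and MYC, a transcription factor that drives ribosome production, by 0.72 (SE 0.17, adjusted p = 0.029). Of 10 ribosome assembly and RNA polymerase I genes all had values above 0, with a median of 0.33, and 1 passed, UTP3, an assembly factor, by 0.45 (SE 0.11, adjusted p = 0.031). Over all probes the median was -0.03 and 5.18% passed. Without the 4 arrays with other markers 0 of all probes passed, so the EIF4EBP1, MYC and UTP3 calls did not hold. Between the lines 0 genes of these lists passed. With line and set removed, the mean of the assembly list correlated over 16 arrays with that of the members at r = 0.24. The mean of the mitochondrial ribosomal proteins did so at r = 0.03. On the same basis the mean of the 3 translational control genes correlated with the members' mean at r = 0.03. EIF4EBP1 alone stood at 0.16 and MYC alone at -0.33, so these values leave out their set differences.

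Markers of other cells moved with the sets for 2 genes of the marker lists. CLDN4, an epithelial junction gene, was higher in replicates 5 to 8 by 3.04 (adjusted p = 0.022) and LYZ, of macrophages, lower by -1.88 (adjusted p = 0.029). Without the 4 arrays with other markers neither gene passed. Neither stands for its list: the 6 epithelial genes had a median of 0.25, with CDH1 and KRT8 below 0, and 4 of the 6 macrophage genes were above 0 (median 0.12). The adipocyte list as a whole had a median of -0.16 with 0 of 11 genes past the test. Its average ran from -0.26 to 0.32 in replicates 1 to 4 and from -0.38 to 0.22 in replicates 5 to 8. The part of cell composition in the RPL23 and RPS3 values was not tested.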

How the data were processed

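The members, the split into replicates 1 to 4 and 5 to 8, and the gene lists were chosen with earlier results of these data known. A short gene list is not reported here. Each pig's total RNA (150 ng) was labelled with Cy3 after linear amplification, per the labels' protocols. The deposited intensities came from Agilent Feature Extraction 10.7.3.1, per the file headers, which subtracted background within each array. The submitters' processing notes name R 2.10.0. The deposited value table holds log2 values, which equalled the log2 processed signal minus the array's median of its 28963 listed spots.

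Here each array's log2 processed intensity was set relative to its 75th percentile. Outlier spots were dropped, which left 4 values of member probes missing. A probe needed to be well above background on 8 of 16 arrays and to have 6 values per line, which left 32097. No member spot was saturated. Tests used limma 3.58.1 in R 4.3.3 on all kept probes, two-sided, with Benjamini-Hochberg adjustment. Line was the only term of the line fit. The set fit held line and set, and the interaction fit held line, set and line by set. Set fits within a line held set only. On simulated data the procedure was checked for each comparison. The number of arrays limits the precision.

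Named genes were those with the 4 highest and lowest levels and spreads, the called genes of each comparison or else the 5 with the smallest p, members with probes of opposite sign, and a fixed set of 15 names of which 4 were measured (RPL10, RPLP1, RPSA and RPS4X). Symbols came from the files, or from RefSeq accessions in the Sscrofa11.1 gene table, used for names only. It held 153 of the members' 160 RefSeq probes. Whether replicate numbers pair pigs across lines was checked: the correlation of deviations ran from -0.29 to 0.32 over the 8 numbers, above 0.1 in 3, so they were not treated as pairs.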

Additional observations from a re-analysis of the deposited data

Results flagged for a closer look

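In 54 groups of 8 pigs (the named genes and the mean of all members, by line), 1 pig stood far from the rest of its line. RPS24, a small subunit protein, read 7.44 in high-RFI replicate 1 on its brightest probe, starting at 392. The other 7 high-RFI pigs lay between 7.62 and 7.69 there. The gap took 0.735 of the range, above Dixon's limit for 8 samples. Chance alone gives such a gap in about 1 group in 20. On the other RPS24 probes this pig was not the lowest of its line, and at 384 it was the highest, at 7.19. High-RFI replicate 1 was the lowest pig on the average of the 9 RPL6 probes starting at 617 to 692. It was not the lowest on those at 644, 650 and 654 taken singly.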

How the results depend on the processing

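Between the sets the number of member probes past the test was 6 and ranged from 0 to 13. Over all probes it was 1662. It was 0 with normexp (17 of all probes), 3 with no filter on dim probes (865 of all), 13 with array weights (5392 of all), 0 without the 4 arrays with other markers, 0 within the low-RFI and 1 within the high-RFI line. It was 5 without low-RFI replicate 8 and 4 without high-RFI replicate 5, and 4 to 8 under the other scalings, filters and the slide block. For the lines and the interaction it was 0 under every alternative run. Leaving out each pig in turn within either set gave 0 members for the lines each time. The median line difference of members, 0.05, was 0.17 with normexp, which moved the median of all probes to -0.12, and stayed within 0.07 of 0 under the other scalings and filters. The mean correlation of members, 0.33, was 0.868 with normexp, 0.193 within replicates 1 to 4 and 0.454 within replicates 5 to 8. It was 0.23 without low-RFI replicate 7, an alternative chosen after seeing the data. RPL23 passed under 9, 10, 7 and 5 of 13 alternatives on its probes at 138, 225, 435 and 436, and RPS3 at 445 under 4. The cause of these changes was not tested. The replicate block, run for the line comparisons, called 0 members in each, and took the calls over all probes within replicates 1 to 4 from 5 to 2. At 8 pigs a group the line comparison cannot show changes smaller than the intervals given.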

Other observations

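Some ribosomal and translation genes are listed under older names and so fell outside the members. In all, 164 probes outside the members are described as ribosomal protein, 43 of them mitochondrial. The 34 names are thus not the whole family. RPL22, listed as HBP15/L22, had 3 transcript probes with levels of 6.46 to 7.18, set differences of -0.12 to -0.05 and line differences of -0.01 to 0.02, none past the test. TPT1, listed as TCTP and known for an mRNA of the same terminal oligopyrimidine class, had 17 probes with levels of 3.92 to 8.95, and none passed in either comparison. Over the 16 arrays, with line and set removed, the correlation of single TPT1 probes with the members' mean profile ran from 0.30 to 0.85. That of RPL22 probes ran from 0.27 to 0.85 and that of the 2 FAU probes from 0.39 to 0.81. These genes were looked up after their values were seen.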
